A study of Homo sapiens with 6 samples.

Results

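The 873 regions described here were called as sites of active transcription in both peak lists of a shortened run-on protocol and in no peak of the established protocol's list. They were 2.54% of the 34308 regions obtained by joining the 3 deposited lists. Peaks on chromosomes 1 to 22 and X were joined wherever they shared at least 1 bp, and a joined region was kept if it held a peak from each of the quick-protocol lists and none from the other. The regions were thus selected on the peak calls of the 3 lists, so their number, scores and distances to other peaks are descriptions, and only position in the annotation and sequence were compared with other regions.

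All libraries came from untreated K562, an established human chronic myeloid leukaemia line with erythroid features, which the labels call lymphoblastoid. PRO-seq, precision run-on sequencing, lets RNA polymerases in permeabilized cells add a biotinylated nucleotide to the RNA they are making and sequences the captured RNA from the point of addition. The group named PRO-seq 1M followed the published protocol on 1000000 cells with 3 affinity purifications, qPRO-seq 1M used the quick protocol with 1 purification on the same number of cells, and qPRO-seq 250k used the quick protocol on 250000 cells. The 1M libraries had 11 PCR cycles and the 250k libraries 14, so input and cycle number cannot be told apart. Each group had 2 replicates at least 3 passages apart, but the labels assign a single peak list to both replicates of a group, so no value has a replicate error and no test across samples could be made.

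The peaks were called with dREG, a tool that scores the paired, divergent initiation seen in run-on data at promoters and at enhancers. At an active promoter, RNA polymerase II starts transcription toward the gene and also in the opposite direction, and polymerases often pause shortly after the start. Active enhancers show a similar bidirectional pattern with short, unstable RNAs, which is why run-on data can locate both kinds of element. After joining, 11852 regions had peaks in all 3 lists, 6289 in both 1M lists alone and 12700 in qPRO-seq 1M alone. A further 356 were seen in qPRO-seq 250k alone, 2108 in the published protocol alone, and 130 in the published protocol with qPRO-seq 250k. On these chromosomes the published protocol's list held 24707 peaks, and the quick protocol's held 38177 at 1M and 15562 at 250k cells. Depth was not given. Of 12 erythroid markers, 11, 12 and 10 had a start peak in these lists in the same order, against 0 of 4 T-lymphoid markers in each list.

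The promoters of 4 genes whose starts fell in such regions are shown for the range of sequence they cover, from a promoter rich in G and C to a globin promoter. They were chosen after their values were seen. Each runs 5′ to 3′ on the gene's strand from 250 bases before the RefSeq start (GRCh38.p14) to 50 from it, and capitals mark exact matches, on either strand, to the GC box (GGGCGG), the ETS core (CCGGAA), the CCAAT box, the element of TATA boxes (TATAAA), the motif of GATA factors (AGATAA), the cyclic AMP response element (TGACGTCA) or the AP-1 motif (TGANTCA). None of these motifs contains another. TMLHE is an enzyme of carnitine synthesis, NPM3 a histone chaperone of the nucleoplasmin family, HBD the delta-globin of adult haemoglobin, and ZNF91 a KRAB zinc-finger repressor of retroelements.
TMLHE, chrX:155612903-155613202, minus strand: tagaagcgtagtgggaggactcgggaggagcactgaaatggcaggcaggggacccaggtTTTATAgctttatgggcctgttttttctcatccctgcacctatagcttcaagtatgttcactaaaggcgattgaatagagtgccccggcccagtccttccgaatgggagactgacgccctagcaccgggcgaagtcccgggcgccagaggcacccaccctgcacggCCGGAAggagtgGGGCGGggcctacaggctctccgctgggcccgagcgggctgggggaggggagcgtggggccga
NPM3, chr10:101783397-101783696, minus strand: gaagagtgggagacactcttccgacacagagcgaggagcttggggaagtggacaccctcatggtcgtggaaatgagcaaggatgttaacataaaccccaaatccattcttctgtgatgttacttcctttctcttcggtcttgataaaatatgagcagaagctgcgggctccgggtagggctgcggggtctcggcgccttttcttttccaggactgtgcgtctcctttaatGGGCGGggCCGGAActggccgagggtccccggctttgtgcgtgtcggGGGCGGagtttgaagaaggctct
HBD, chr11:5234434-5234733, minus strand: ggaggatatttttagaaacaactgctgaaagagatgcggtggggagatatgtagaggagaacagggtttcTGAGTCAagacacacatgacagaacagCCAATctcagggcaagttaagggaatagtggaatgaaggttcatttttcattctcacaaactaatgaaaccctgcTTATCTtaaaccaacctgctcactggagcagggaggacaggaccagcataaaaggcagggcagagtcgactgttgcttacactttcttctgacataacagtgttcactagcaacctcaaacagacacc
ZNF91, chr19:23395422-23395721, minus strand: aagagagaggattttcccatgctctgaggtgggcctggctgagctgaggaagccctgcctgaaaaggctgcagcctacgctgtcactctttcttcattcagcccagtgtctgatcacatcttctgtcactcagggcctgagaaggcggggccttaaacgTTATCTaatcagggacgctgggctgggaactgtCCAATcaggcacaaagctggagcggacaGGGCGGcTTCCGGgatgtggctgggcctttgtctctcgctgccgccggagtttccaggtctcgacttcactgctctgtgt
The TMLHE window was 62.7% G and C, with an ETS core 25 bases and a GC box 13 bases before the start. NPM3 had an ETS core 12 bases before its start and GC boxes 20 bases before and 27 bases after it. HBD was 44.7% G and C and had neither an ETS core nor a GC box. Its window held a GATA motif 78 bases, a CCAAT box 153 bases and an AP-1 motif 180 bases before the start. ZNF91 combined an ETS core, a GC box, a CCAAT box and a GATA motif. These are letter matches in the reference and were not tested as binding sites.

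The quick lists ranked the 873 regions differently. A peak's dREG score was placed as a percentile within its own list, because scores from lists of different length were not compared directly. In qPRO-seq 1M, the regions had a median percentile of 48.3 (lowest 0.107, highest 98.6) and a median score of 0.534. In qPRO-seq 250k the median percentile was 21.2 (lowest 0.00643, highest 79.4) and the median score 0.415. Thus 413 of 873 lay above the median of the qPRO-seq 1M list, 88 above that of the qPRO-seq 250k list and 65 above both. Spearman's rho between the percentiles was 0.20 over 873 regions, a description only, as the peaks of a region come from the same stretch of genome. Regions found in all 3 lists had median percentiles of 82.1 and 59.6 in the same lists. In most cases the joined region was simple: 801 held 1 peak from each quick list, 63 held 2 from qPRO-seq 1M and 1 from qPRO-seq 250k, and 9 held several from qPRO-seq 250k. The top peaks of the quick lists were centred a median of 50 bp apart, and the regions were a median of 510 bp wide, from 180 to 1450 bp.

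**Figure D1:**
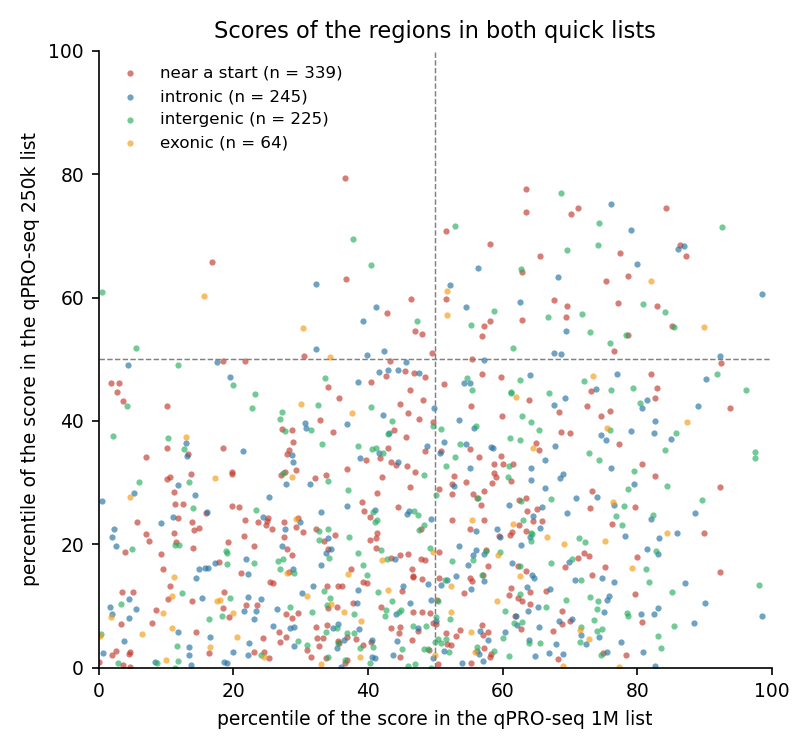
Each point is 1 of the 873 regions, placed by the percentile of its top qPRO-seq 1M score (x axis) and of its top qPRO-seq 250k score (y axis), each within its own list, and coloured by position. Dashed lines mark the 50th percentile of each list, above which 413 regions lie on the x axis and 88 on the y axis.

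The highest-ranked regions by the mean of both percentiles were not all promoters. The region ranked 1 was intergenic, at chr4:31658931-31659480, with scores of 1.02 in qPRO-seq 1M and 0.713 in qPRO-seq 250k. Its nearest annotated start was 152265 bp away and the nearest PRO-seq 1M peak 337100 bp away. The next, at chr2:233220941-233221710, lay in an intron of ATG16L1, a component of the autophagy machinery, with scores of 1.16 and 0.632. The region ranked 3 covered a start of USP54, a ubiquitin-specific peptidase family member, at chr10:73591141-73591550, with scores of 0.889 and 0.737. It was 380 bp from a PRO-seq 1M peak. In these regions the quick lists both gave high scores, at or above the percentiles of 84.3 in qPRO-seq 1M and 60.6 in qPRO-seq 250k. The rest of the first 10 were intronic regions of LINC01602, TPTE2P6, PUM2 (an RNA-binding translational regulator) and AC243772.3, the starts of TMLHE and FSBP, and an intergenic region at chr4:67403111-67403740. Of the 64 exonic regions, the highest-ranked was in OR52A5, an olfactory receptor gene near the beta-globin cluster (chr11:5129151-5129990, scores of 0.974 and 0.596). It was followed by an exon of NCAN, a proteoglycan of brain extracellular matrix (chr19:19225161-19225640, scores of 0.860 and 0.646), and by exons of A2ML1, AL133215.2, HOXB3 with HOXB-AS3, and NDUFB10.

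Some of these regions abutted or adjoined PRO-seq 1M peaks, and others lay far from any. The nearest PRO-seq 1M peak was a median of 3120 bp away. It touched the region without sharing a base in 12 cases, and was within 20 bp in 38, within 100 bp in 86 and within 500 bp in 267 (30.6%). At the other end, 350 regions (40.1%) were more than 10000 bp and 82 more than 100000 bp from any such peak. The farthest was an intergenic region at chrX:144784531-144785030, at 2880550 bp, followed by the start of MTRNR2L12 at 1145820 bp and an intergenic region at chr3:78108941-78109500 at 1068720 bp. Distance went with position. Of the regions near a start, 169 of 339 (49.9%) were within 500 bp of a PRO-seq 1M peak, against 43 of 245 intronic, 35 of 225 intergenic and 20 of 64 exonic ones. For comparison, 24.7% of regions in qPRO-seq 1M alone were within 500 bp of such a peak, with a median gap of 7660 bp. At the edge of the rule, the 38 regions within 20 bp had median percentiles of 44.6 in qPRO-seq 1M and 17.9 in qPRO-seq 250k. The 38 regions of all 3 lists with the smallest overlap with a PRO-seq 1M peak (30 to 190 bp) had 55.8 and 23.5.

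**Figure D2:**
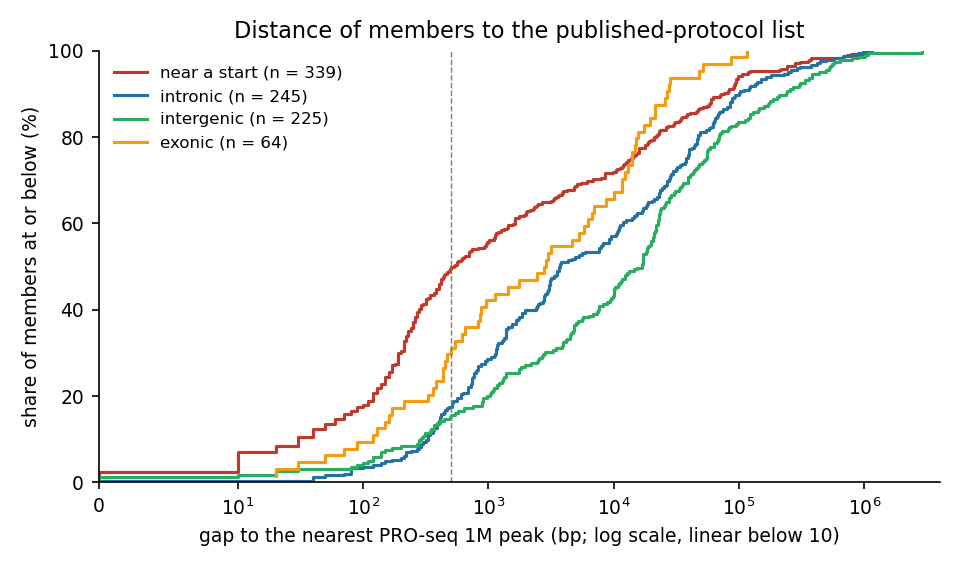
Cumulative share of the 873 regions (y axis, percent) by the gap to the nearest PRO-seq 1M peak (x axis, bp, on a log scale that is linear below 10), drawn for each position class. The dashed line marks 500 bp, by which 49.9% of regions near a start are reached but 15.6% of intergenic ones.

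A region of qPRO-seq 1M without a PRO-seq 1M peak was seldom called at 250k cells. Of 13573 such regions, 873 (6.43%) had a qPRO-seq 250k peak, against 65.3% of the 18141 with a PRO-seq 1M peak. This share went up with the qPRO-seq 1M score, from 1.97% in the lowest decile of the score (54 of 2747) to 37.1% in the highest (13 of 35). It was 9.24% for regions near a start, 7.76% for exonic, 5.36% for intergenic and 5.02% for intronic ones. In the mirror case, 130 of 2238 regions of PRO-seq 1M without a qPRO-seq 1M peak (5.81%) had a qPRO-seq 250k peak. These shares follow from the same calls as the rule and carry no test.

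By position, the regions were mixed between promoters and distal sites. A transcript start of any gene in GENCODE release 29 lay within 500 bp of 339 of the 873 (38.8%, 95% Wilson interval 35.7 to 42.1), against 50.6% of all 34308 regions. Of the others, 245 were intronic (28.1%, against 23% of all regions), 225 intergenic (25.8%, against 21.8%) and 64 exonic (7.33%, against 4.51%). The intervals treat regions as independent and cover counting error alone.

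They held fewer starts than regions also seen by the published protocol and more than regions seen only by qPRO-seq 1M. In the 356 regions of qPRO-seq 250k alone, the share near a start was 40.7% (95% Wilson interval 35.8 to 45.9), close to the 38.8% here. The share near a start was 76.9% for regions in all 3 lists, a difference (regions of both quick lists alone minus the other class, here and in what follows) of -38.1 percentage points (95% Newcombe interval -41.3 to -34.7). It was 51.2% for regions of both 1M lists alone, a difference of -12.3 points (-15.7 to -8.84), and 26.2% for regions of qPRO-seq 1M alone, a difference of 12.6 points (9.33 to 16.0). Within deciles of the qPRO-seq 1M score, these differences were -32.9, -12.8 and 14.4 points, and none of the 3 intervals included 0. When only regions whose quick peaks reached their lists' median scores were kept, 65 regions remained and the difference from both 1M lists alone was -4.41 points (-15.9 to 7.80), which includes 0.

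Among regions within 500 bp of a PRO-seq 1M peak, 63.3% of the 267 were near a start, against 55.0% of the 3139 regions of qPRO-seq 1M alone, a difference of 8.25 points (2.07 to 14.1). Farther than 500 bp, the shares were 28.1% of 606 and 16.8% of 9561, a difference of 11.3 points (7.77 to 15.1). The excess of starts over qPRO-seq 1M alone was therefore present on both sides of that distance. When every region within 500 bp of a PRO-seq 1M peak was counted as held by that list, in all classes, the difference from regions of both 1M lists alone was -24.4 points.

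**Figure D3:**
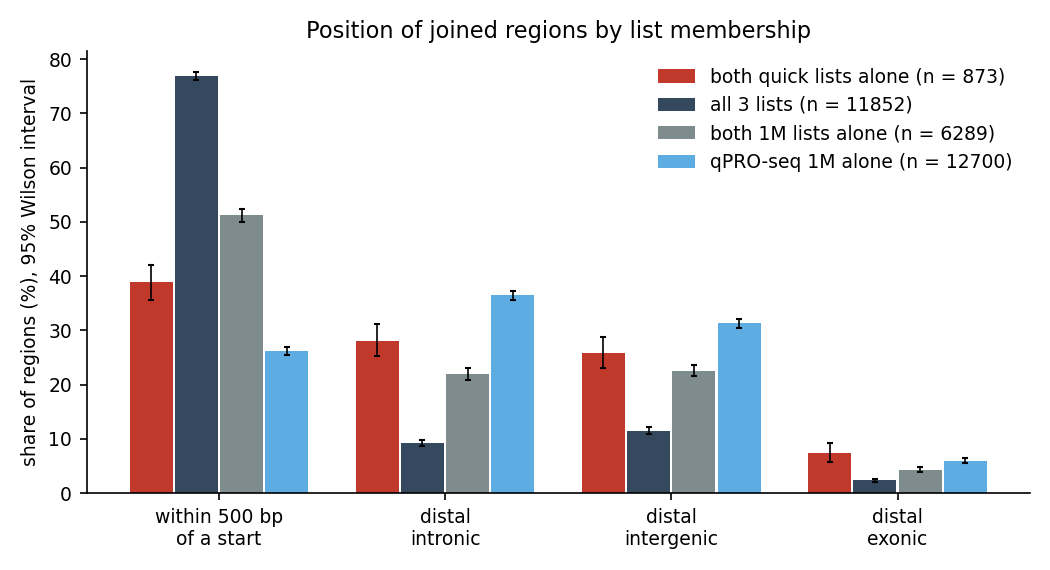
Share of joined regions (y axis, percent) within 500 bp of a transcript start or, beyond that, in introns, between genes or in exons, for 4 classes of list membership. Bars are shares with 95% Wilson intervals. The regions in both quick lists alone stand at 38.8% near a start, between qPRO-seq 1M alone (26.2%) and both 1M lists alone (51.2%). The regions of qPRO-seq 250k alone (40.7%) are not drawn.

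Protein-coding starts made up most of the promoter portion. A coding start lay within 500 bp of 280 regions (32.1%, against 44.7% of all regions). Starts of antisense or long intergenic RNAs were near 52 regions (5.96%, against 9.24% of all regions). The latter share was 14.3% in all 3 lists, a difference of -8.33 points (-9.85 to -6.45), and 5.05% in qPRO-seq 1M alone, a difference of 0.909 points (-0.531 to 2.72). Unlike the share of coding starts, it was not distinguishable from that of qPRO-seq 1M alone within counting error.

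Many genes with a coding start near these regions also had a PRO-seq 1M start peak. Starts of 305 protein-coding genes were within 500 bp of one of the 873 regions, and 208 of these genes also had a PRO-seq 1M peak at one of their starts. That start need not be the one near the region. Across all 19864 protein-coding genes, peaks of PRO-seq 1M lay at a start of 10503. These proportions were not tested against each other. Counted by gene, 104 of 19864 protein-coding genes (0.524%) had a start peak in both quick lists and none in PRO-seq 1M, and 95 of them had one of the 873 regions at a start. With all lists at the length of the shortest, the count was 177, and the counts by gene list were not recomputed at that length. By comparison, 1561 genes had a start peak in both 1M lists and none in qPRO-seq 250k, and 42 had one in the published protocol's list and in qPRO-seq 250k but none in qPRO-seq 1M.

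TMLHE ranked highest by mean percentile among the 95 genes with one of the 873 regions at a start. Its highest-ranked region at a start scored 0.920 in qPRO-seq 1M and 0.690 in qPRO-seq 250k, and the nearest PRO-seq 1M peak was 277720 bp away. FSBP, a transcription factor of the fibrinogen promoter, had scores of 0.932 and 0.676. NPM3 scored 1.02 and 0.558, with no PRO-seq 1M peak within 33540 bp. These scores corresponded to percentiles of 86.4, 87.3 and 92.5 in qPRO-seq 1M and of 68.6, 66.8 and 49.4 in qPRO-seq 250k. All 3 percentiles were lower in the shorter list from fewer cells. The median percentile of regions in all 3 lists was lower there too (82.1 and 59.6). TMLHE had another, weaker region at a start, chrX:155612351-155612760. It scored 0.435 in qPRO-seq 1M and 0.341 in qPRO-seq 250k, percentiles of 32.5 and 4.90.

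A single region at chr2:38875701-38876260 served the divergent starts of DHX57, a DEAH-box helicase, and MORN2, with scores of 0.902 and 0.597 and a gap of 97240 bp. Further down were AKR1C1, a steroid-metabolizing reductase (0.781 and 0.646), SLC34A1, the sodium-phosphate cotransporter of kidney (1.04 and 0.518), and HSPBAP1 (1.01 and 0.451). HSPBAP1 differed from the others in that a PRO-seq 1M peak was 220 bp from its region. The remaining genes of the first 20 of these 95 were C8orf33, CGB1 with the overlapping AC008687.1, ZNF717, HBD, ZNF284, RTTN (a centriole protein), KLK2, MOCS1 (molybdenum cofactor synthesis), CXorf40A, WBP1 and SDAD1. CGB1 belongs to the near-identical chorionic gonadotropin beta genes, where reads may be split between copies, which was not tested. Its region had the reverse order of most, a percentile of 36.6 in qPRO-seq 1M and of 79.4 in qPRO-seq 250k, the highest of the 873 in the latter list.

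The HBD start illustrates an erythroid gene among them. Its region, chr11:5234461-5234900, scored 0.750 in qPRO-seq 1M (percentile 72.5) and 0.519 in qPRO-seq 250k (percentile 42.4). The nearest PRO-seq 1M peak was 15000 bp away. HBD is not in the erythroid list of 36 genes, of which 29 had a start peak in PRO-seq 1M, 30 in qPRO-seq 1M and 24 in qPRO-seq 250k, and 0 had one in both quick lists and not in PRO-seq 1M. The upper Wilson limit of this last share was 9.64%, above the 0.524% of all coding genes.

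Zinc-finger genes gave most of the listed genes. Of 515 genes with names in ZNF, most of which encode sequence-specific, often KRAB-containing repressors, 14 (2.72%) had a start peak in both quick lists and none in PRO-seq 1M, beside the 0.524% of all coding genes. They were ZNF717, ZNF284, ZNF675, ZNF699, ZNF540, ZNF571, ZNF225, ZNF586, ZNF91, ZNF730, ZNF563, ZNF782, ZNF223 and ZNF771. Of the 14, 11 were on chromosome 19, which carries 249 of the 515. With or without a 250k peak, 44 of the 515 had a start peak in qPRO-seq 1M and none in PRO-seq 1M. The same held for 694 of all 19864 coding genes. A start peak in qPRO-seq 1M of any kind was found for 378 of the 515 and 10821 of the 19864. ZNF540 and ZNF571 shared a region between divergent starts, at chr19:37594611-37594910, with scores of 0.581 and 0.455. ZNF284, at chr19:44071801-44072220, scored 0.845 and 0.470, while ZNF225 and ZNF223, on the same chromosome, scored 0.565 and 0.445, and 0.586 and 0.309. ZNF91 scored 0.697 in qPRO-seq 1M but 0.348 in qPRO-seq 250k, a percentile of 6.00, and was 362990 bp from a PRO-seq 1M peak. Zinc-finger genes are a family of similar sequence, and whether part of their signal was placed uncertainly was not tested.

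In the other lists, 2 of 386 solute carrier genes qualified (0.518%, SLC34A1 and SLCO2B1), as did 1 of 71 histone genes (1.41%, HIST1H4E, scores of 0.374 and 0.461) and 1 of 39 HOX genes (2.56%, HOXB6). These counts are too small to set the lists apart from each other or from all coding genes. HOXB6 was near 2 regions, with scores of 0.478 and 0.383 at chr17:48604191-48604590 and of 0.295 and 0.532 at chr17:48604641-48605220. The count was 0 in the megakaryocyte and platelet, myeloid, B-lymphoid, T-lymphoid, immediate-early, cell-cycle, heat-shock, ABL and JAK-STAT, ribosomal protein, olfactory receptor, protocadherin, potassium channel and TMEM lists. They held from 10 genes (B-lymphoid and T-lymphoid) to 400 (olfactory receptor). The share over all coding genes was 0.524% (104 of 19864). Even in the largest of these lists, olfactory receptor and TMEM (251 genes), the upper Wilson limits of 0.951% and 1.51% lay above that share. The counts of 0 therefore do not set these lists apart from all coding genes. Several genes of these lists had one of the 873 regions at a start and also a start peak in PRO-seq 1M. These included FOS, an immediate-early transcription factor (0.351 and 0.420), SOCS2, a feedback inhibitor of cytokine signalling (0.533 and 0.524), PIM1, a kinase induced by STAT5 (0.532 and 0.386), and the cell-cycle genes CCNE2, CDT1, E2F2 and E2F3. Gaps to the nearest PRO-seq 1M peak in these 7 ranged from 10 bp at CCNE2 to 1620 bp at PIM1.

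Small nuclear RNA (snRNA) and small nucleolar RNA (snoRNA) genes were near a larger share of these regions than of the 3 larger classes that hold a qPRO-seq 1M peak, in part through a single repeat of U2 genes, and near a smaller share than of the 356 regions in qPRO-seq 250k alone. U2 is the spliceosomal RNA that pairs with the branch site of introns, and its gene is repeated in tandem on chromosome 17. The sequence of the RNU2-1 transcript in GENCODE release 29, the reference copy of that repeat, is shown because most of the annotated copies share it. Capitals mark GTAGTA, the stretch that pairs with the branch site.
RNU2-1: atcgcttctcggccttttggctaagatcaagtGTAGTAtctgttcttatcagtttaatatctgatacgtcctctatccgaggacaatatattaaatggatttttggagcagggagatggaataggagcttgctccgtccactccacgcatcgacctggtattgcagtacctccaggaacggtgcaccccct
An snRNA or snoRNA start lay within 500 bp of 17 regions (1.95%, against 0.490% of all regions). Of these, 11 were near an snRNA start (1.26%, against 0.274% of all regions) and 6 near an snoRNA start (0.687%, against 0.216%). The combined share was 0.709% in all 3 lists, 0.223% in both 1M lists alone and 0.283% in qPRO-seq 1M alone, but 4.21% in qPRO-seq 250k alone (15 of 356, 2.57 to 6.83). The differences from the first 3 classes were 1.24 points (0.491 to 2.40), 1.72 points (0.981 to 2.88) and 1.66 points (0.928 to 2.82). Without the U2 repeat, 11 regions were left (1.26%, against 0.455% of all regions and 3.09% in qPRO-seq 250k alone), and the difference from regions in all 3 lists was 0.568 points (-0.0112 to 1.56), which includes 0. With all lists at the length of the shortest, it was 0.261 points (-0.233 to 1.10). The differences from both 1M lists alone and from qPRO-seq 1M alone remained above 0 without the repeat, at 1.04 points (0.462 to 2.02) and 0.977 points (0.411 to 1.96).

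The U2 repeat held 13 annotated genes, from 43233787 to 43300231 on chromosome 17. Of the 12 that are 191 bases long, all but one, at 99.5% identity, had the RNU2-1 sequence, and another is 192 bases. A region in both quick lists alone was within 500 bp of 6 of them, regions of all 3 lists were at 2, peaks of qPRO-seq 250k alone at 3, and no peak at 2. RNU2-1 itself scored 0.334 in qPRO-seq 1M and 0.520 in qPRO-seq 250k, percentiles of 10.2 and 42.5. The strongest copy, at chr17:43251829-43252019, was in all 3 lists, with percentiles of 94.0 in PRO-seq 1M, 97.2 in qPRO-seq 1M and 75.5 in qPRO-seq 250k. Reads within the gene cannot be assigned among the identical copies, so the pattern over those copies is uncertain.

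**Figure D4:**
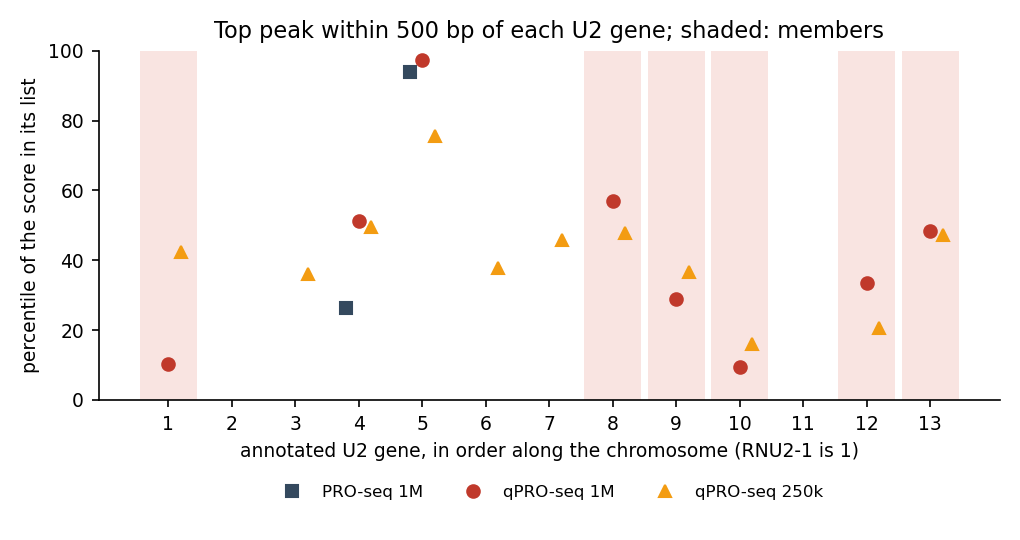
For each of the 13 annotated U2 genes in chromosomal order (x axis), the percentile of the highest peak within 500 bp in each list (y axis). Squares are PRO-seq 1M, circles qPRO-seq 1M and triangles qPRO-seq 250k. Shading marks the 6 genes with a region in both quick lists alone, and PRO-seq 1M has a peak at 2 of the 13.

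Outside U2, the 11 regions included single-copy and copied genes. A region at chr17:16439811-16440150 was near SNORD49A and SNORD49B, guide RNAs for ribosomal RNA methylation, and scored 0.558 in qPRO-seq 1M and 0.708 in qPRO-seq 250k. Another covered SNORD3C, a U3 gene involved in cleavage of precursor ribosomal RNA (0.623 and 0.546), and another lay by RNU6-7, a copy of the U6 spliceosomal RNA transcribed by RNA polymerase III (0.503 and 0.499). Near SNORD95, inside the gene of RACK1, a protein of the ribosome, the score was 0.287 in qPRO-seq 1M (percentile 1.80) and 0.540 in qPRO-seq 250k (percentile 46.1). The same region was also within 500 bp of a start of RACK1 itself. The remaining regions were near RF00003, RNU2-59P, RNU1-27P, RNU1-88P, SNORD4A with SNORD42A in the RPL23A gene, SNORD104 with SNORA50C, and SNORD61.

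Transfer RNA genes and nuclear copies of mitochondrial genes were each near few of the regions. A tRNA gene was within 500 bp of 12 regions (1.37%, against 0.979% of all regions), with 1.70% in all 3 lists, a difference of -0.330 points (-0.967 to 0.706). The difference from both 1M lists alone was 0.611 points (-0.0252 to 1.64), which includes 0, and that from qPRO-seq 1M alone was 0.894 points (0.292 to 1.91). In qPRO-seq 250k alone the tRNA share was 1.69%. A nuclear copy of a mitochondrial gene was within 500 bp of 5 regions (0.573%, against 0.0641% of all 34308 and 0.0675% in all 3 lists), a difference from all 3 lists of 0.505 points (0.171 to 1.27). They lay at chr1:628981-629330, chr1:631691-631990 and chr1:632011-632410, which are copies of adjoining mitochondrial genes, and at MTRNR2L8 and MTRNR2L12. Their percentiles ran from 23.5 to 45.6 in qPRO-seq 1M and from 10.3 to 38.3 in qPRO-seq 250k. The 3 on chromosome 1 share a single insertion and are not independent, and reads from the mitochondrial genome itself may be placed on such copies, which was not tested.

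Sequence was examined in the RefSeq promoter windows that these regions overlapped, 106 of the 873. Windows on chromosome 8, where 44 of the 873 lay, were not used here. CpG-rich windows, here those with at least 50% G and C and an observed-to-expected CpG ratio of at least 0.6, are typical of broadly active promoters. They made up 64.2% of the 106 (54.7 to 72.6), against 84% of the windows under all regions and 47% of all 34961 windows. The share was 90.0% in all 3 lists, a difference of -25.8 points (-35.3 to -17.3), 77.5% in both 1M lists alone, a difference of -13.3 points (-23.0 to -4.55), and 49.6% in qPRO-seq 1M alone, a difference of 14.5 points (4.44 to 23.7). In the 36 windows of qPRO-seq 250k alone, the CpG-rich share was 63.9% (47.6 to 77.5). The median content of G and C was 59.2% in the 106, 66.3% in all 3 lists, 67.3% in both 1M lists alone and 58.7% in qPRO-seq 1M alone.

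Motifs did not all follow this order. The GC box, recognized by SP and KLF factors, was in 53.8% of the 106 windows (73.3% under all regions, 45% of all windows). The difference was -22.1 points (-31.6 to -12.8) from all 3 lists and -19.7 points (-29.4 to -10.3) from both 1M lists alone, but 3.90 points (-6.17 to 13.7) from qPRO-seq 1M alone, which includes 0. The ETS core, shared by many ETS-family activators, was in 36.8% (30.9% under all regions, 17.3% of all windows). This differed from all 3 lists by 2.15 points (-6.50 to 11.7), but from both 1M lists alone by 13.5 points (4.69 to 23.2) and from qPRO-seq 1M alone by 18.5 points (9.50 to 28.4). In qPRO-seq 250k alone, the ETS core was in 30.6% of 36 windows (18.0 to 46.9). CCAAT was in 37.7% (36.2% under all regions, 34.6% of all windows), with intervals that included 0 against each of the 3 classes.

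The GATA motif, bound by GATA1 in erythroid cells, was in 10 of the 106 windows (9.43%, against 4.97% under all regions and 10.3% of all windows). The difference from all 3 lists was 5.24 points (0.980 to 12.3), that from both 1M lists alone 4.11 points (-0.296 to 11.3) and that from qPRO-seq 1M alone -1.65 points (-6.50 to 5.69). With peaks limited to p of at most 0.01 the share was 3.92%. AP-1 motifs were in 7 windows (6.60%, against 4.56% under all regions and 7.68% of all windows), and TATAAA in 8 (7.55%, against 4.93% and 11.5%), with intervals that included 0 against the 3 classes. Motifs of other factors were also sparse in the 106. The E-box CACGTG, bound by MYC and USF factors, was in 7.55% (10.2% under all regions, 7.27% of all windows), and the E-box CAGATG, bound by TAL1 complexes in erythroid cells, was in 10.4% (8.49% and 14.7%). The cyclic AMP response element was in 3.77% (3.38% and 1.85%) and the NRF1 site in 2.83% (2.58% and 1.24%). Against all 3 lists, the intervals of these 4 differences each included 0. With 106 windows, differences of a few percentage points were not detectable.

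**Figure D5:**
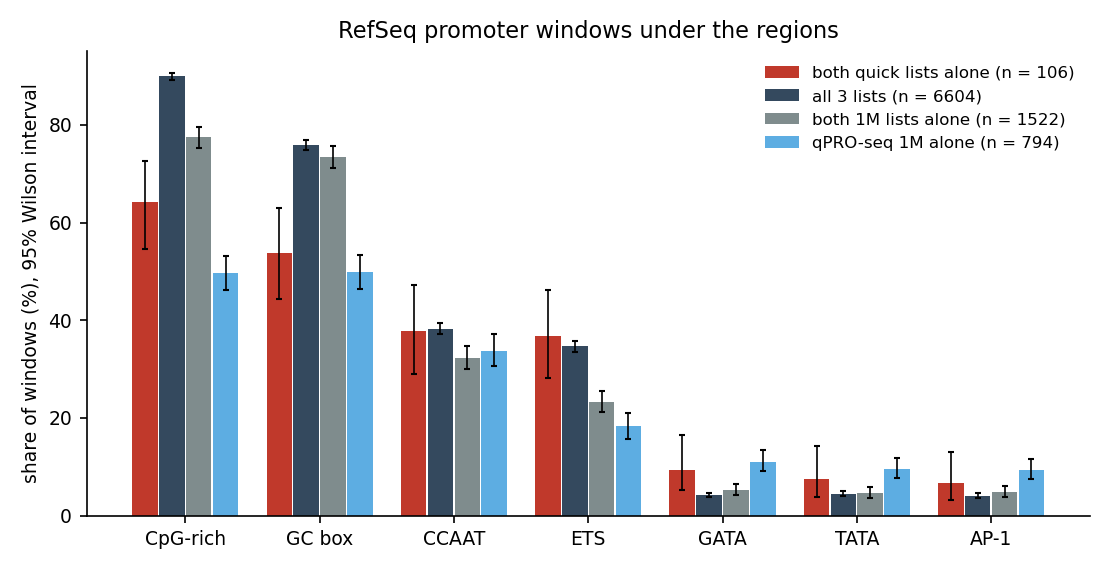
Share of RefSeq promoter windows (y axis, percent) that are CpG-rich or hold the named motif on either strand, for windows overlapped by regions of 4 classes of list membership. Bars are shares with 95% Wilson intervals. The 106 windows of regions in both quick lists alone are at 64.2% for CpG-rich sequence, below all 3 lists (90.0%), and at 36.8% for the ETS core, above qPRO-seq 1M alone (18.3%).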

How the data were processed

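PRO-seq and qPRO-seq of K562 gave 6 libraries in 3 groups of 2, with 1 dREG peak list per group. The authors deposited positions, a dREG score, a p-value of at most 0.05 and a centre position for each peak. The submitters' processing notes name hg38, fastp 0.20.0, Bowtie2 2.3.5.1, UMI-tools and deepTools 3.1.3. The dREG version and thresholds are not given in the sources used here, and neither is depth. Peaks on chromosomes 1 to 22 and X were joined when they shared at least 1 bp (Python 3.11.15, pandas 2.3.3). Positions came from GENCODE release 29 and promoter windows (300 bp) from RefSeq. A region was placed by starts of any gene within 500 bp, then exons, then introns. Motif and CpG measures were planned on 300 bp around peak centres, but no genome sequence was used here, so they were made on the RefSeq window with the largest overlap. Shares have 95% Wilson and differences 95% Newcombe intervals (SciPy 1.17.1), tested on simulated data. Regions are ranked by the mean score percentile. The text names the first 10, the first 6 of each position class (some given by gene name only or left out for length), the first 20 genes and every qualifying gene of the lists. The regions and gene lists were chosen with earlier results of these data known. Alternatives changed joining, thresholds, windows and list length. Some marker and gene results are not reported here.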

Additional observations from a re-analysis of the deposited data

Results flagged for a closer look

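On sequences other than chromosomes 1 to 22 and X, which the report does not use, 8 further regions held peaks of both quick lists and none of PRO-seq 1M, of 238 joined regions there. Of the 8, 6 were on alternate scaffolds and 2 on unplaced or unlocalized ones, and 0 were on the mitochondrial genome or chromosome Y. They were singled out because they lie on sequences outside the main measurement, and the absence of a PRO-seq 1M peak is part of how they were chosen. Adding all sequences gave 881 regions in place of 873.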

How the results depend on the processing

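Of 95 alternative values, 79 kept their direction and side of 0 or stayed within the interval or 1.5 times the count. The number of regions was between 606 and 1004 under 7 alternatives, 850 of them when touching peaks were joined (chosen after seeing the data), but 65 when both quick peaks had to reach the median score, an alternative that keeps fewer regions. With those 65 the share near a start was 43.1%, the difference from both 1M lists alone was -4.41 points, the GATA and AP-1 shares were 0 and the CpG-rich share 50.0%, over few windows. The share near a start was 28.6% with peaks merged within 500 bp and 28.1% with no PRO-seq 1M peak within 500 bp. The latter leaves out the 267 regions within 500 bp of such a peak, of which 63.3% were near a start. The share was 49.6% with a 1000 bp start window and 32.1% with coding starts alone, which follows from the window and starts allowed. Apart from the -4.41 points above, the near-start differences from the 3 classes kept their sign, with intervals that did not include 0, in the alternatives run. Genes with start peaks in both quick lists alone numbered 177 with all lists at the length of the shortest, and the cause was not tested. The GATA share was 3.92% at p of at most 0.01, and the cause was not tested. The snRNA and snoRNA results were chosen after seeing the data: the share was 0.996% and the difference from all 3 lists 0.261 points with lists of equal length, 2.09 points (-0.151 to 9.56) among the 65, and 0.568 points without the U2 repeat. No paired analysis was possible because each list stands for both replicates, and leaving out a replicate was not run for the same reason. The 500 bp sequence window was not run. Unknown depth, and peak calls in place of levels, limit every value.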

Other observations

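The regions were spread over all 23 chromosomes used, from 1.65% of joined regions on chromosome 22 (12 of 726) to 3.44% on chromosome 18 (19 of 553). The 95% Wilson intervals of these shares, 0.948 to 2.87 and 2.21 to 5.30, overlap. Chromosome 19, with 11 of the 14 zinc-finger genes, had 63 of 2053 regions (3.07%). Its interval, 2.41 to 3.91, includes the 2.54% of all regions, and the shares on chromosomes 4, 8, 18 and X were higher.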
